A study of Mus musculus with 12 samples.

Results

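*Bmp2*, *Bmp4*, *Bmp7*, *Inhba*, *Inhbb*, *Fst*, *Bambi*, *Id1*, *Id2* and *Id4* were 10 of the 770 genes on a mouse cancer pathway panel. They were taken by name and not by a rule on their values, though earlier results of these data were known. They cover BMP ligands, the activin subunits, a secreted and a membrane-bound antagonist, and ID proteins. BMPs and activins are secreted dimers of the TGF-beta superfamily that bring together type I and type II serine/threonine kinase receptors. BMP receptors phosphorylate SMAD1, SMAD5 and SMAD9, activin receptors phosphorylate SMAD2 and SMAD3, and both groups of SMADs pair with SMAD4 to control transcription. The *Id* genes are classical targets of BMP signalling, and in the liver BMPs are best known for the control of hepcidin and iron, activins for restraining hepatocyte growth.

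Gene expression was measured by NanoString® in 2 murine hepatocellular carcinoma (HCC) cell lines, with 3 biological replicates in each of 4 groups, to learn what silencing of *Dusp4*, an ERK phosphatase, changes. AKT/NRAS came from a liver tumour raised by hydrodynamic tail vein injection of myristoylated AKT flox/flox together with oncogenic NRAS. AKT Cre/NRAS is its derivative after Cre recombinase, in which the AKT transgene was removed and NRAS remained. The groups were AKT Cre/NRAS siRNA, AKT Cre/NRAS SCR, AKT/NRAS siRNA and AKT/NRAS SCR, where siRNA is a pool against *Dusp4* and SCR the negative control pool. All groups thus carried oncogenic NRAS and were transfected. Each line is a single line, so a difference between the lines cannot be told apart from any other way in which 2 cultures differ.

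The values are barcode counts scaled to spiked controls by the authors, and here also to 15 reference genes, and are called normalized counts. Any value under the common floor of 27.1 normalized counts was set to it, and had only an upper limit. The summed counts above the floor lay between 641790 and 1081646 per library. *Dusp4* itself averaged 4023 normalized counts in AKT Cre/NRAS siRNA and 5556 in AKT Cre/NRAS SCR, a log2 difference of -0.45 (SE 0.12, limma adjusted p = 0.0178), and it averaged 370 in AKT/NRAS siRNA and 1228 in AKT/NRAS SCR, a log2 difference of -1.73 (SE 0.05, adjusted p = 1.13e-06). Of the hepatocyte markers on the panel, 5 of 6 were above the floor and *Igf1* was at it in every library. The leukocyte genes *Csf1r* and *Csf3r*, the endothelial *Kdr* and the stromal *Pdgfrb*, *Col1a2* and *Col3a1* were at the floor throughout. *Cd14* was measured, at 1629 to 1708 normalized counts in AKT Cre/NRAS siRNA, 1627 to 1790 in AKT Cre/NRAS SCR, 1433 to 1533 in AKT/NRAS siRNA and 1323 to 1506 in AKT/NRAS SCR. The endothelial *Flt1* lay at 387 to 495 in AKT Cre/NRAS siRNA and 239 to 369 in AKT Cre/NRAS SCR, against 933 to 1007 in AKT/NRAS siRNA and 1260 to 1403 in AKT/NRAS SCR. The sum of the stromal *Pdgfra* and *Col1a1* lay at 442 to 513 in AKT Cre/NRAS siRNA and 269 to 408 in AKT Cre/NRAS SCR, against 60.7 to 83.7 in AKT/NRAS siRNA and 80.0 to 104 in AKT/NRAS SCR. The summed biliary or progenitor markers *Prom1*, *Sox9* and *Spp1* lay at 101972 to 115872 normalized counts in AKT Cre/NRAS siRNA and 120377 to 161827 in AKT Cre/NRAS SCR, against 17246 to 19905 in AKT/NRAS siRNA and 15321 to 15943 in AKT/NRAS SCR, with *Prom1* at the floor in both AKT/NRAS groups. *Flt1* and the stromal and biliary or progenitor sums moved with the line, as the genes below did, and their part in those results was not tested. The log2 ratio of *Rpl19* to *Polr2a*, a pair of reference genes, lay at 4.72 to 5.03 in AKT Cre/NRAS siRNA, 5.48 to 6.88 in AKT Cre/NRAS SCR, 3.86 to 3.92 in AKT/NRAS siRNA and 3.81 to 3.87 in AKT/NRAS SCR. Its part in the results was not tested. In such bulk RNA, fewer cells with a transcript and less transcript per cell cannot be told apart.

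The regulatory regions of a BMP ligand that was higher in AKT Cre/NRAS cells and of an ID gene that was lower there are shown first, because their opposite direction is one of the main patterns below. RefSeq promoters were held for 5 of the 10 genes, and 2 of these, both of measured genes, are shown. Each sequence is the 250 bases before the annotated start (GRCm38.p6), read 5′ to 3′ on the gene's own strand, with motif matches in capitals. *Bmp4* lies at chr14:46383525-46390669 and its upstream window at chr14:46390670-46390919 on the minus strand. *Id2* lies at chr12:25093799-25096092 and its window at chr12:25096093-25096342 on the minus strand.
Bmp4: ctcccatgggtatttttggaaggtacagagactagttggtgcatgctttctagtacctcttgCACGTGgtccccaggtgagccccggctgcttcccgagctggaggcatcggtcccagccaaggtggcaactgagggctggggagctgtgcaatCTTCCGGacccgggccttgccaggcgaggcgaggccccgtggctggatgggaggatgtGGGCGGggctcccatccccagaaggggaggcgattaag
Id2: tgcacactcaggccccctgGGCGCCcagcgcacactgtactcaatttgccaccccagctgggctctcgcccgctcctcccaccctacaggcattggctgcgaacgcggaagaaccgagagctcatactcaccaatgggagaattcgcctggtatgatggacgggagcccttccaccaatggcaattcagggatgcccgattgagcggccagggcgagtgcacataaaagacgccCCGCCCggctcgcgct
The motifs searched on both strands were GGCGCC, a GC-rich element bound by BMP SMADs, and CACGTG, a form of the E-box. The others were TGANTCA, the AP-1 site, CCGGAAG, an ETS site, GGGCGG, the SP1 box, and TATAAA. Other forms of the E-box were not searched. In capitals, the *Bmp4* window held CACGTG with its first base 188 bases before the start, CCGGAAG on the other strand at 96 and GGGCGG at 38. The *Id2* window held GGCGCC at 231 and GGGCGG on the other strand at 16. Of 32851 RefSeq promoter windows of that length, 9.59% held GGCGCC, 6.02% CACGTG, 6.75% TGANTCA, 6.91% CCGGAAG, 32.7% GGGCGG and 12.4% TATAAA. These matches describe letters in the windows and were not tested against the expression values.

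Of the 10 genes, 7 were above the floor in at least 1 library. *Bmp2*, *Bmp4*, *Bambi*, *Id1* and *Id2* were above it in all 12 libraries, *Fst* in 11 and *Bmp7* in 6. *Inhba* and *Inhbb*, which encode the beta subunits that form the activins, and *Id4*, a further ID protein, were at the floor in all 12 libraries, so that nothing can be said of them beyond an upper limit of 27.1 normalized counts. The floor stands close to the background, since the highest negative control read 11 to 20 counts per library.

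**Figure D1:**
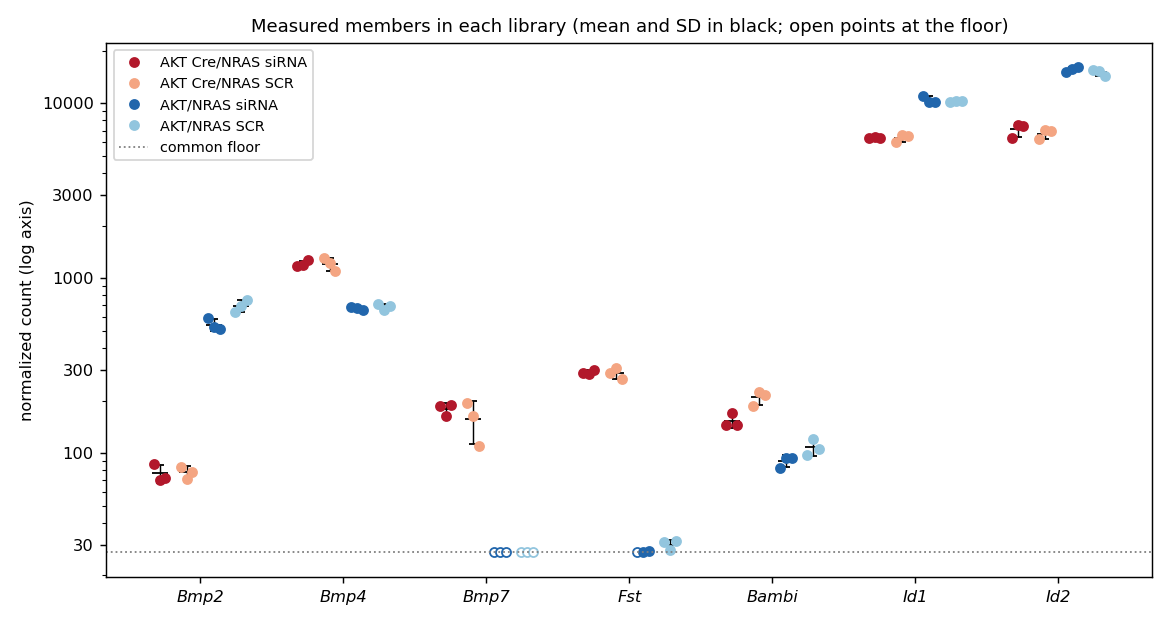
Normalized counts (log axis) of the 7 measured genes in every library, by group, with the group mean and SD in black and open points for values at the floor. The AKT Cre/NRAS groups sit apart from the AKT/NRAS groups for all 7 genes, with *Bmp2*, *Id1* and *Id2* lower and the other 4 higher. Between the lines 76.9% of 515 panel genes passed the test with SCR and 74.5% of 522 with siRNA. The share of panel genes without overlap is not given.

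The line was the main source of difference. With SCR, *Bmp4*, *Bmp7*, *Fst* and *Bambi* were higher in AKT Cre/NRAS than in AKT/NRAS and *Bmp2*, *Id1* and *Id2* were lower, so that all 7 measured genes passed the test (limma, Benjamini-Hochberg adjusted over 515 genes). Across the panel, 28.9% of genes passed as higher and 48% as lower, so that a passing gene was the rule in this comparison. *Bmp7* was tested only through its AKT Cre/NRAS libraries, since every AKT/NRAS value was the floor, so its pass holds no spread from AKT/NRAS. The share of panel genes whose lines did not overlap is not given, so the lack of overlap below is not set against the panel. The median log2 difference was 0.81 over the 7 genes and -0.22 over all genes tested. With *Dusp4* siRNA in both lines, a comparison on the other 6 libraries, the same 4 genes were higher and the same 3 lower, against 36.6% of 522 genes higher and 37.9% lower.

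Among the ligands, *Bmp2* and *Bmp4* went opposite ways. *Bmp2*, a BMP that acts in bone and in iron control, had 87.0, 70.1 and 72.5 normalized counts in AKT Cre/NRAS siRNA, 83.8, 70.7 and 78.0 in AKT Cre/NRAS SCR, 590, 530 and 510 in AKT/NRAS siRNA and 645, 698 and 749 in AKT/NRAS SCR. Every AKT Cre/NRAS library lay far below every AKT/NRAS library. With siRNA the log2 difference was -2.81 (SE 0.10, limma adjusted p = 2.54e-07). With SCR the means were 77.5 ± 6.55 in AKT Cre/NRAS and 698 ± 52.1 in AKT/NRAS (SD, n = 3 each), a log2 difference of -3.15 (SE 0.11, limma adjusted p = 4.40e-08). The AKT Cre/NRAS values rested on 70 to 89 barcodes per library, and the AKT/NRAS values on 507 to 668.

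*Bmp4*, its close relative that patterns mesoderm and epithelia, had 1178, 1199 and 1271 normalized counts in AKT Cre/NRAS siRNA, 1307, 1223 and 1101 in AKT Cre/NRAS SCR, 690, 677 and 658 in AKT/NRAS siRNA and 710, 659 and 691 in AKT/NRAS SCR. All 6 AKT Cre/NRAS libraries lay above all 6 AKT/NRAS libraries. The log2 difference was 0.85 with siRNA (SE 0.04, limma adjusted p = 1.45e-06) and 0.81 with SCR (SE 0.09, adjusted p = 3.26e-05). With SCR it fell short of the threshold when the 5 best ranked reference genes set the scale (0.39, adjusted p = 0.215).

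A ratio of 2 genes within a library does not depend on how that library is scaled. The pairs of genes were chosen with their values known, so a separation of the ratios is a description and no independent support. The log2 ratio of *Bmp4* to *Bmp2* was 3.76, 4.10 and 4.13 in AKT Cre/NRAS siRNA, 3.96, 4.11 and 3.82 in AKT Cre/NRAS SCR, 0.23, 0.35 and 0.37 in AKT/NRAS siRNA and 0.14, -0.08 and -0.12 in AKT/NRAS SCR. Between the lines these ranges were widely separated under both transfections. An exact permutation test of 3 against 3 libraries cannot go below p = 0.1, so none is given for the ratios. Since the probes of 2 genes need not count with equal efficiency, a ratio is read across groups and not as the relative amount of the ligands.

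*Bmp7*, a BMP known for its part in kidney development, was above the floor only in AKT Cre/NRAS libraries, at 185, 164 and 189 normalized counts with siRNA and 194, 163 and 110 with SCR, and it was at the floor in all 6 AKT/NRAS libraries. The AKT Cre/NRAS mean was therefore at least 6.62-fold higher than the AKT/NRAS limit with siRNA (limma adjusted p = 5.61e-08). With SCR it was at least 5.75-fold higher (limma adjusted p = 5.14e-06). Every AKT/NRAS value was set to the floor, so these p-values hold the spread of the AKT Cre/NRAS libraries only. Over the scalings tried, and with each library's own floor in place of the common one, these lower limits were 5.86 to 8.75 with siRNA and 4.44 to 8.07 with SCR. The 110 of AKT Cre/NRAS SCR replicate 3 stood below the other AKT Cre/NRAS libraries, and rested on 99 barcodes.

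Both antagonists were higher in AKT Cre/NRAS. *Fst* encodes follistatin, which binds activins almost irreversibly and some BMPs less tightly. It had 287, 283 and 299 normalized counts in AKT Cre/NRAS siRNA and 289, 306 and 264 in AKT Cre/NRAS SCR. In AKT/NRAS siRNA it was at the floor in replicate 1 and read 27.1 and 27.5 in the other libraries, and in AKT/NRAS SCR it read 30.9, 27.8 and 31.3. The AKT/NRAS values above the floor rested on 24 to 32 barcodes, close above the negative controls. With siRNA the difference is a lower limit, since 1 AKT/NRAS library was at the floor. With SCR no AKT/NRAS library was at the floor, and the difference is an estimate from low counts. The log2 difference was 3.37 with siRNA (SE 0.06, limma adjusted p = 8.43e-09) and 3.21 with SCR (SE 0.11, adjusted p = 4.23e-08). The AKT/NRAS siRNA values lay at or just above the floor, so the siRNA p-value and SE hold little spread from that group. Over the scalings, the ratio of the AKT Cre/NRAS mean to the AKT/NRAS mean ranged from 9.47 to 11.4 with siRNA and from 7.26 to 13.0 with SCR.

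*Bambi* encodes a transmembrane pseudoreceptor that resembles a type I receptor but lacks the kinase domain. It had 145, 171 and 145 normalized counts in AKT Cre/NRAS siRNA, 186, 223 and 215 in AKT Cre/NRAS SCR, 82.6, 94.3 and 94.4 in AKT/NRAS siRNA and 97.6, 121 and 106 in AKT/NRAS SCR. The lines did not overlap under either transfection. Between the lines *Bambi* differed by 0.76 on the log2 scale with siRNA (SE 0.10, limma adjusted p = 0.000242) and 0.94 with SCR (SE 0.12, adjusted p = 0.000130), and it passed under all 7 scalings with both.

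The ID genes went the other way. ID proteins are helix-loop-helix factors without a DNA-binding region that hold E proteins in inactive dimers and so restrain differentiation. *Id1* had 6380, 6436 and 6336 normalized counts in AKT Cre/NRAS siRNA, 6006, 6621 and 6530 in AKT Cre/NRAS SCR, 11068, 10137 and 10223 in AKT/NRAS siRNA and 10221, 10290 and 10282 in AKT/NRAS SCR. The 6 AKT Cre/NRAS libraries were all lower than the 6 AKT/NRAS libraries. The log2 difference was -0.71 with siRNA (SE 0.04, limma adjusted p = 2.42e-06) and -0.69 with SCR (SE 0.08, adjusted p = 5.58e-05). On the deposited values with no further scaling the SCR difference was -0.18 (adjusted p = 0.543), which did not pass.

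*Id2*, whose upstream window is printed above, had 6356, 7526 and 7428 normalized counts in AKT Cre/NRAS siRNA, 6228, 7022 and 6934 in AKT Cre/NRAS SCR, 15166, 15694 and 16161 in AKT/NRAS siRNA and 15465, 15346 and 14350 in AKT/NRAS SCR. The lines were again fully apart. *Id2* had a log2 difference of -1.15 with siRNA (SE 0.07, limma adjusted p = 3.25e-06) and -1.16 with SCR (SE 0.09, adjusted p = 4.39e-06), and it passed under all 7 scalings with both. *Id2* fell further than *Id1*: the log2 ratio of *Id2* to *Id1* within a library was -0.01 to 0.23 in AKT Cre/NRAS siRNA, 0.05 to 0.09 in AKT Cre/NRAS SCR, 0.45 to 0.66 in AKT/NRAS siRNA and 0.48 to 0.60 in AKT/NRAS SCR.

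On the scaled values *Bmp4* was thus higher and *Id1* lower in AKT Cre/NRAS. Their ratio is free of scaling, but it shows only that *Bmp4* was higher relative to *Id1*, not the direction of either gene. The log2 ratio of *Bmp4* to *Id1* was -2.44 to -2.32 in AKT Cre/NRAS siRNA, -2.57 to -2.20 in AKT Cre/NRAS SCR, -4.00 to -3.90 in AKT/NRAS siRNA and -3.97 to -3.85 in AKT/NRAS SCR. Relative to *Bmp2*, *Id1* was also higher in AKT Cre/NRAS. The log2 ratio of *Id1* to *Bmp2* was 6.20 to 6.52 in AKT Cre/NRAS siRNA and 6.16 to 6.55 in AKT Cre/NRAS SCR. It was 4.23 to 4.33 in AKT/NRAS siRNA and 3.78 to 3.99 in AKT/NRAS SCR. The transcript of a target and that of a ligand are separate measurements, and no SMAD phosphorylation was measured in these data.

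**Figure D2:**
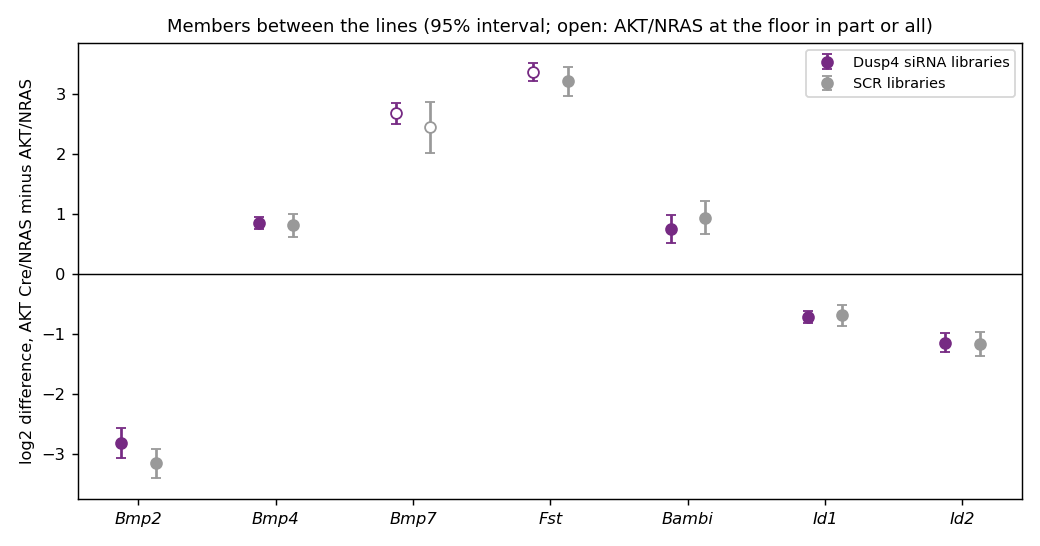
Log2 difference between the lines, AKT Cre/NRAS minus AKT/NRAS, for the 7 measured genes in the *Dusp4* siRNA libraries (purple) and the SCR libraries (grey), with 95% intervals from limma and open points where AKT/NRAS libraries were at the floor. *Bmp2* stood at -2.81 and -3.15 and *Fst* at 3.37 and 3.21, and no interval reached 0. The *Bmp7* intervals hold no spread from the AKT/NRAS libraries, which were all at the floor.

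After silencing of *Dusp4*, 1 measured gene passed the test in each line, and that count depended on the scaling. In AKT Cre/NRAS cells 1 of the 7 measured genes passed the test, *Bambi*, which was lower, against 40.6% of 503 panel genes that passed as higher and 5.37% as lower. The median log2 difference was 0.01 over the 7 genes and 0.23 over all genes tested. *Bambi* averaged 154 ± 14.9 normalized counts in AKT Cre/NRAS siRNA and 208 ± 19.2 in AKT Cre/NRAS SCR (SD, n = 3 each). This was a log2 difference of -0.44 (SE 0.13, limma adjusted p = 0.0209), and the siRNA libraries were all below the SCR libraries. The share of panel genes whose siRNA and SCR libraries did not overlap is not given. A lack of overlap after siRNA is therefore not set against the panel.

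The call on *Bambi* depended on the scaling and on single libraries. It passed under 4 of 7 scalings, with log2 differences between -0.79 and 0.01, and failed without AKT Cre/NRAS siRNA replicate 1 (adjusted p = 0.0883), without AKT Cre/NRAS siRNA replicate 3 (adjusted p = 0.0787) or without AKT Cre/NRAS SCR replicate 2 (adjusted p = 0.0702). Relative to *Bmp4* of the same library, *Bambi* had a log2 ratio of -3.02, -2.81 and -3.13 in AKT Cre/NRAS siRNA and -2.81, -2.46 and -2.36 in AKT Cre/NRAS SCR, so that the highest siRNA ratio stood only just under the lowest SCR ratio. The *Rpl19* to *Polr2a* ratio moved between the same groups, at 4.72 to 5.03 with siRNA and 5.48 to 6.88 with SCR, and its part in this difference was not tested.

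The other genes did not pass in AKT Cre/NRAS. The log2 difference was -0.02 for *Bmp2* (95% interval -0.32 to 0.28), 0.01 for *Bmp4* (-0.19 to 0.21), 0.24 for *Bmp7* (-0.18 to 0.65), 0.02 for *Fst* (-0.22 to 0.26), 0.00090 for *Id1* (-0.19 to 0.19) and 0.08 for *Id2* (-0.15 to 0.30). The interval was widest for *Bmp7*, so a change of that size in it was not detectable here. The direction of *Bmp2*, *Bmp4*, *Bmp7*, *Fst*, *Id1* and *Id2* turned under at least 1 other scaling each, so no direction is given for them. Some passed there: after median centring *Bmp4* (-0.35, limma adjusted p = 0.0139), *Fst* (-0.34, adjusted p = 0.0227) and *Id1* (-0.35, adjusted p = 0.0195) were lower, *Bmp4* was also lower after quantile normalization (-0.28, adjusted p = 0.0390), and *Id2* was higher with 5 reference genes (0.53, adjusted p = 0.0430).

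In AKT/NRAS cells 6 genes could be tested, since *Bmp7* was at the floor, and 1 passed, *Bmp2*, which was lower. Across the panel 5.44% of 496 genes passed as higher and 11.9% as lower. *Bmp2* averaged 543 ± 41.7 normalized counts in AKT/NRAS siRNA and 698 ± 52.1 in AKT/NRAS SCR (SD, n = 3 each). This was a log2 difference of -0.36 (SE 0.07, limma adjusted p = 0.0176). Every siRNA library lay below every SCR library, but the share of panel genes without overlap is not given here either. It passed under 5 of 7 scalings. On the deposited values it was -0.03 (adjusted p = 0.828), after quantile normalization -0.31 (adjusted p = 0.0575), and it failed without AKT/NRAS siRNA replicate 3 (adjusted p = 0.0658) or without AKT/NRAS SCR replicate 2 (adjusted p = 0.0550).

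Ratios within the libraries again need no scaling. The log2 ratio of *Bmp4* to *Bmp2* was 0.23 to 0.37 in AKT/NRAS siRNA and -0.12 to 0.14 in AKT/NRAS SCR, and that of *Id1* to *Bmp2* was 4.23 to 4.33 in AKT/NRAS siRNA and 3.78 to 3.99 in AKT/NRAS SCR. Neither pair of ranges overlapped, so *Bmp2* was lower relative to both genes after siRNA in these libraries. Both ratios share the same *Bmp2* values and were chosen with the values known, so they are no separate support.

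The other genes did not pass in AKT/NRAS. *Bambi* had a log2 difference of -0.25 (95% interval -0.49 to -0.01, limma adjusted p = 0.145). Its siRNA libraries were all below the SCR libraries, a separation that is not set against the panel. *Fst* had a log2 difference of -0.14 (-0.30 to 0.03) near the floor. The log2 difference was -0.02 for *Bmp4* (-0.13 to 0.08), 0.03 for *Id1* (-0.06 to 0.12) and 0.06 for *Id2* (-0.04 to 0.15). These intervals are narrow for *Bmp4*, *Id1* and *Id2*, but all 3 genes moved with the scaling: on the deposited values they were 0.31, 0.36 and 0.39 and passed the test, where the median over the panel was itself 0.30.

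**Figure D3:**
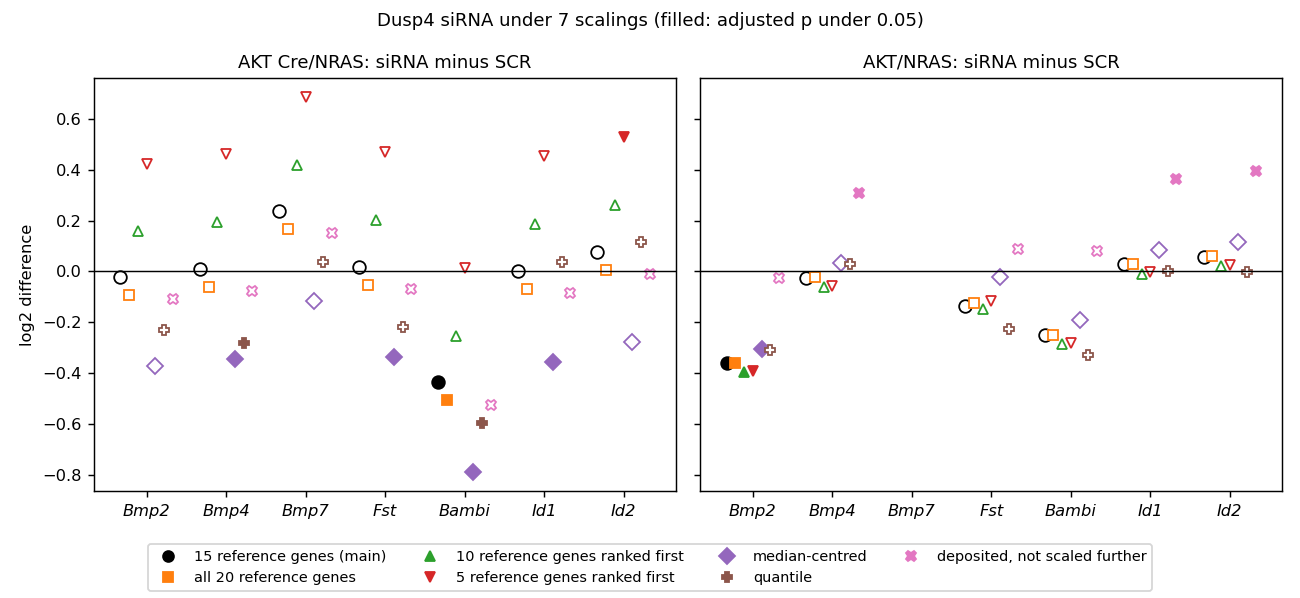
Log2 difference after *Dusp4* siRNA, siRNA minus SCR, in AKT Cre/NRAS (left) and AKT/NRAS (right) for each measured gene under 7 scalings, with filled points where limma's adjusted p was under 0.05. *Bambi* ran from -0.79 to 0.01 in AKT Cre/NRAS and *Bmp2* from -0.40 to -0.03 in AKT/NRAS, and *Bmp7* was not tested in AKT/NRAS.

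Whether the response to siRNA differed between the lines was tested as an interaction, and 0 of 7 genes passed (limma; 1 of 7 at an unadjusted p under 0.05; *Bmp7* rested on its AKT Cre/NRAS libraries alone), against 40.6% of 525 panel genes higher and 4.76% lower. For *Bmp2* the response in AKT Cre/NRAS minus that in AKT/NRAS was 0.34 (SE 0.15, limma adjusted p = 0.0785), and for *Bambi* it was -0.19 (SE 0.15, adjusted p = 0.341). The passing call on *Bambi* in the one line and on *Bmp2* in the other is therefore not shown to be a difference between the lines. For *Bmp2* the interaction passed without AKT Cre/NRAS SCR replicate 1 (0.40, limma adjusted p = 0.0416). It also passed under 2 of 7 scalings, over which it ran from -0.08 to 0.82. *Bmp4*, *Id1* and *Id2* passed under 2 of 7 scalings each, and *Bambi* and *Fst* under 1, so the lack of calls depended on the scaling.

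**Figure D4:**
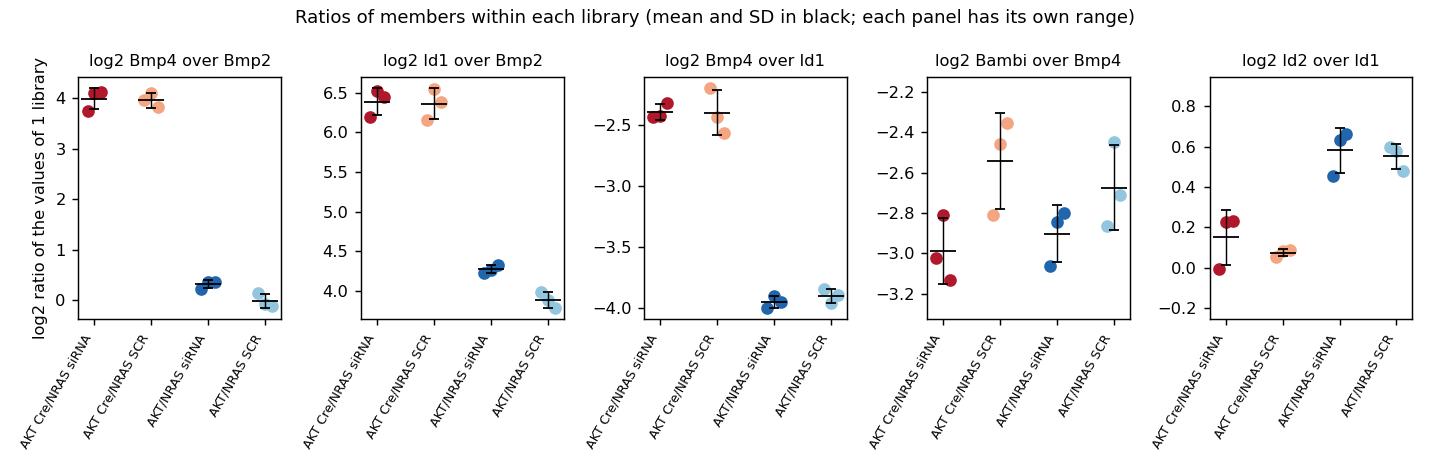
Log2 ratios of pairs of genes within each library, by group, with the group mean and SD in black and a range of its own for each panel. *Bmp4* over *Bmp2* ran from 3.76 to 4.13 in the AKT Cre/NRAS libraries against -0.12 to 0.37 in the AKT/NRAS libraries, and *Bambi* over *Bmp4* overlapped between the lines.

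The rest of the pathway was read from wider lists of TGF-beta superfamily genes, of which 29 were on the panel beside the 10 above. With SCR, 16 of the 29 could be tested between the lines: 1 was higher in AKT Cre/NRAS, 12 were lower and 3 did not pass, where 28.9% of the panel passed as higher and 48% as lower. These lists were fitted with the 15 reference genes only, and not under the other scalings. Their median log2 difference was -0.74, against -0.22 over all genes tested. The 2 largest falls were *Ltbp1*, which tethers latent TGF-beta to the matrix, at -2.91, and *Tgfb3*, a TGF-beta ligand, at -2.89, and *Thbs1*, a matrix protein that can activate latent TGF-beta, was the gene that was higher (0.55, with AKT/NRAS at the floor). *Bmp6*, the BMP most tied to hepcidin control, was at the floor in AKT Cre/NRAS SCR and averaged 103 normalized counts in AKT/NRAS SCR. *Bmp6* was named after its values had been seen. All 4 ligands of the wider list that could be tested were lower in AKT Cre/NRAS SCR, as *Bmp2* was, while *Bmp4* and *Bmp7* were higher. With siRNA in both lines, 5 of 16 were higher, with *Thbs1* at 0.63 and the common SMAD *Smad4* at 0.57, and 8 were lower, with *Tgfb3* at -2.68 and *Ltbp1* at -2.41. Over the panel 36.6% passed as higher and 37.9% as lower, and the median log2 difference was -0.17 over the list and -0.00053 over all genes tested. With siRNA as with SCR, *Thbs1* was at the floor in every AKT/NRAS library and *Bmp6* in every AKT Cre/NRAS library. Their passes thus hold spread from the other line only.

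The tested receptors were *Acvr1b* and *Acvr2a*, which activins use, and *Tgfbr1* and *Tgfbr2*. These and the SMADs below were named for their roles after their values had been seen. With SCR, 3 of these 4 were lower in AKT Cre/NRAS, where 48% of the panel was, and *Acvr1b* did not pass (0.03). *Smad1*, which carries the BMP signal, had 0.16 (limma adjusted p = 0.142) and did not pass, and *Smad3*, which carries the activin and TGF-beta signal, had -1.18 (adjusted p = 1.01e-05). With siRNA *Smad1* was higher at 0.44 and *Smad3* lower at -0.30.

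After *Dusp4* siRNA in AKT Cre/NRAS, 15 of the 29 were tested, 9 were higher and none lower, where 40.6% of the panel passed as higher and 5.37% as lower, with a median of 0.29 against 0.23 over the panel. The 2 largest rises were *Tgfb1* at 0.76 and *Smad3* at 0.71. In AKT/NRAS, 15 were tested, 1 was higher, the receptor *Tgfbr2* at 0.16, and 4 were lower, with *Smad4* at -0.21 and *Tgfb1* at -0.20, where 5.44% of the panel passed as higher and 11.9% as lower. In the interaction 9 of 16 passed as higher and none as lower, where 40.6% of the panel passed as higher and 4.76% as lower, with *Tgfb1* at 0.96 and *Smad3* at 0.88.

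**Figure D5:**
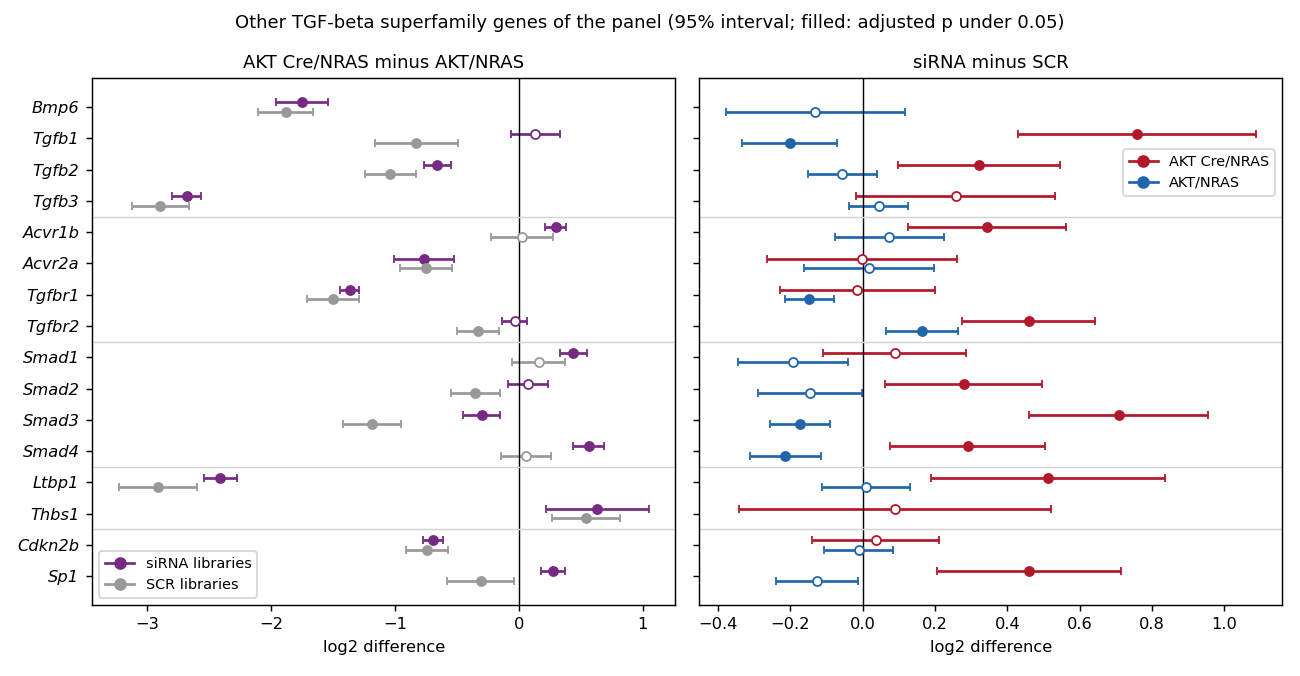
Log2 differences with 95% intervals of the other TGF-beta superfamily genes, in the order ligands, receptors, SMADs, matrix binders, and targets and cofactors, between the lines (left) and after siRNA (right), with filled points where limma's adjusted p was under 0.05. *Ltbp1* at -2.91 and *Tgfb3* at -2.89 had the lowest values between the lines in the SCR libraries, and 9 genes passed to the right of 0 after siRNA in AKT Cre/NRAS.

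For *Bmp2*, *Bambi*, *Id1* and *Id2*, which were above the floor in all libraries, the genes most like them over the 4 groups were found among 445 others, by the root mean square difference of group means on the log2 scale after each gene was centred. *Bmp2* lay nearest to *Angpt1* (0.13) and *Jun* (0.14), *Bambi* to *Bnip3* (0.06) and *Endog* (0.07), *Id1* to *Cdkn2b* (0.02) and *Xpa* (0.02), and *Id2* to *Gusb* (0.04) and *Pdgfc* (0.04). The median difference to all other genes ran from 0.39 for *Id1* to 1.43 for *Bmp2*. These are likenesses over 4 group means and carry no test.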

How the data were processed

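Total RNA of 12 cultures was counted with the NanoString® nCounter® Mouse PanCancer Pathways panel, with no amplification. The deposited signal values are barcode counts that the authors scaled to 6 spiked positive controls in nSolver™, with anything under 20 listed as 20. Undoing that scaling gave whole counts within 0.1 for 100% of the values up to 1000. Floored counts are unknown, so no count model was used. As the methods name reference genes chosen by pairwise variation, each library was scaled to 15 of the panel's 20 by that criterion, and values were raised to the common floor of 27.1. Genes above the floor in at least 1 library compared were tested on log2(value + 1) by limma (version 3.58.1, R 4.3.3; intensity trend, groups of the comparison only), and a Benjamini-Hochberg adjusted p under 0.05 passed. Fold changes on this scale understate changes of low genes. Figures were drawn with matplotlib 3.10.9. p-values cover the spread between the replicates only. Values set to the floor add no spread, so the p-values of *Bmp7* cover its AKT Cre/NRAS libraries alone. Barcode counts limit precision through counting error.

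The genes, lists and scaling were chosen with earlier results of these data known. All 10 genes are named, and from the wider lists up to 2 largest rises and 2 largest falls per comparison past the threshold without overlap. *Bmp6*, the receptors and the SMADs named beside these were added after their values had been seen. The pairs of genes in the ratios were also chosen with the values known. Between AKT Cre/NRAS siRNA and SCR, deviations of same-numbered libraries correlated at 0.221, 0.116 and 0.229 over 446 genes. Differently numbered libraries correlated at -0.294 to 0.084. These correlations are weak and do not establish a pairing, and the labels give none. In the other comparisons at least 1 same-numbered pair correlated under 0.1. The alternatives were 6 other scalings, pseudocount, filter, floor, p adjustment, the spread model, the replicate block and leaving out each library. The fit was tested on simulated data. The genes most like *Bmp4* and 1 leukocyte marker are not reported here.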

Additional observations from a re-analysis of the deposited data

How the results depend on the processing

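With a replicate block the number of genes that passed was 1 after siRNA in AKT Cre/NRAS, 1 in AKT/NRAS, 7 and 7 between the lines and 0 in the interaction, and no call changed. In AKT Cre/NRAS siRNA against SCR, the number that passed was 1, and it became 0 on the deposited values, with the 10 reference genes ranked first, with no filter and with Benjamini-Yekutieli adjustment, 4 after median centring and 2 after quantile normalization, and it ran from 0 to 1 when 1 library was left out. In AKT/NRAS siRNA against SCR, the number was 1, and it became 3 on the deposited values and 0 after quantile normalization, with no filter, with Benjamini-Yekutieli adjustment and with 1 fit over the 4 groups, and it ran from 0 to 1 with 1 library left out. In the interaction it was 0, and became 5 after median centring, 3 with 5 reference genes, 1 with 10 reference genes and 1 after quantile normalization, with 0 to 1 when 1 library was left out. Between the lines it was 7, or 6 with SCR on the deposited values or with 5 reference genes, and 7 in every fit with 1 library left out. With a mean of at least 100 it was also 6 with SCR, because *Bmp7* was then not tested and no call was lost. The scalings move every gene of a library together: the median over the panel after siRNA in AKT Cre/NRAS was 0.23, and 0.13 on the deposited values, -0.10 after median centring, 0.02 after quantile normalization, and 0.16, 0.41 and 0.67 with 20, 10 and 5 reference genes. The panel's calls there were 204 higher and 27 lower, and 32 and 136 after median centring, 53 and 39 after quantile normalization, 2 and 1 on the deposited values. In AKT/NRAS siRNA against SCR they were 27 higher and 59 lower, and 253 and 3 on the deposited values. With SCR between the lines they were 149 higher and 247 lower, and 192 and 94 on the deposited values. Single genes turned their sign 60 times, all after siRNA or in the interaction and none between the lines. On the deposited values the log2 differences that turned were, after siRNA in AKT Cre/NRAS *Bmp4* at -0.078, *Fst* at -0.069, *Id1* at -0.087 and *Id2* at -0.011, and after siRNA in AKT/NRAS *Bambi* at 0.082, *Bmp4* at 0.31 and *Fst* at 0.090, and in the interaction *Bmp2* at -0.082, *Bmp4* at -0.39, *Fst* at -0.16 and *Id2* at -0.41. After median centring the log2 differences that turned were, after siRNA in AKT Cre/NRAS *Bmp4* at -0.35, *Bmp7* at -0.12, *Fst* at -0.34, *Id1* at -0.35 and *Id2* at -0.28, and after siRNA in AKT/NRAS *Bmp4* at 0.033, and in the interaction *Bmp2* at -0.070, *Bmp4* at -0.38, *Bmp7* at -0.12, *Fst* at -0.31 and *Id2* at -0.40. After quantile normalization the log2 differences that turned were, after siRNA in AKT Cre/NRAS *Bmp4* at -0.28 and *Fst* at -0.22, and after siRNA in AKT/NRAS *Bmp4* at 0.028 and *Id2* at -0.0028, and in the interaction *Bmp4* at -0.31 and *Id1* at 0.038. With 20 reference genes the log2 differences that turned were, after siRNA in AKT Cre/NRAS *Bmp4* at -0.061, *Fst* at -0.052 and *Id1* at -0.069, and in the interaction *Bmp4* at -0.038 and *Id2* at -0.054. With 10 reference genes the log2 differences that turned were, after siRNA in AKT Cre/NRAS *Bmp2* at 0.16, and after siRNA in AKT/NRAS *Id1* at -0.0080, and in the interaction *Bambi* at 0.033 and *Id1* at 0.19. With 5 reference genes the log2 differences that turned were, after siRNA in AKT Cre/NRAS *Bambi* at 0.013 and *Bmp2* at 0.42, and after siRNA in AKT/NRAS *Id1* at -0.0029, and in the interaction *Bambi* at 0.29 and *Id1* at 0.46. Leaving out 1 library turned the sign of other values, which then ranged after siRNA in AKT Cre/NRAS from -0.12 to 0.038 for *Bmp2*, from -0.043 to 0.028 for *Id1*, from -0.057 to 0.066 for *Bmp4* and from -0.039 to 0.067 for *Fst*, and after siRNA in AKT/NRAS from -0.012 to 0.051 for *Id1* and from -0.054 to 0.00022 for *Bmp4*, and in the interaction from -0.037 to 0.096 for *Id2*, from -0.033 to 0.090 for *Bmp4* and from -0.071 to 0.013 for *Id1*. Of the counts, 21 moved by over 1.5 times and 84 did not. The 1 call after siRNA in AKT Cre/NRAS with 5 reference genes was *Id2*, higher, and not *Bambi*. Of the single values, 625 kept direction and side of the threshold, 9 passed, with the same sign, only in an alternative and 16 only in the fit reported. Depth limits *Fst* and *Bmp7* in AKT/NRAS, which sat at or close to the floor.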
